A study of Mus musculus with 2 samples.

Results

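The cells described here are macrophages of the embryonic mouse cochlea, 176 barcodes of the 15813 that passed the filters in a single-cell RNA-seq series on the loss of Ptch1. They were chosen by their own transcripts. A passing barcode had 1000 or more UMIs (unique molecular identifiers, each counted as 1 captured transcript), 500 or more detected genes, and no more than 10% of its UMIs from mitochondrial genes. A macrophage carried at least 10 UMIs per 10000 from C1qa, C1qb and C1qc together, at least 1 UMI of Csf1r, Pf4 or Fcer1g, and no UMI of Epcam, which encodes an epithelial adhesion molecule. By this rule 108 of 9373 passing barcodes of the mutant library and 68 of 6440 of the wild-type library were macrophages.

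Macrophages enter embryonic tissues from yolk sac and fetal liver progenitors, depend on the receptor CSF1R for survival, and clear dying cells. Those of the inner ear lie in the mesenchyme, along the vessels of the lateral wall and around the spiral ganglion, and perivascular macrophages later accompany the capillaries of the stria vascularis, the tissue that secretes endolymph. C1q, encoded by C1qa, C1qb and C1qc, starts the classical complement pathway and tags debris for uptake, and tissue macrophages are its main source.

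Cochleae were taken at E16.5 from embryos of genotype Emx2Cre;Ptch1f/f, in which Cre driven from Emx2 is meant to delete floxed Ptch1 in Emx2-expressing cells, and from wild-type embryos, both on a mixed background of 129/SvEv and C57BL/6N. The product of Ptch1 binds Hedgehog ligands and, while unbound, keeps the pathway silent, and the series concerns marginal cells and the stria, with no question stated about macrophages. Each genotype was 1 library of 8 pooled cochleae. Before 10x Genomics 3′ capture the tissue was dissociated for 30 min in collagenase/dispase (1 mg/mL, 37 °C) and strained at 40 µm. With 1 library per genotype, no difference between genotypes has a replicate check and no test was possible. Every interval printed below covers counting error at the 95% level only.

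The mutant library held 100135532 UMIs in 12326 barcodes and the wild-type library 61130806 UMIs in 6500 barcodes. The lowest deposited barcode had 500 UMIs in the mutant library and 3352 in the wild-type library, so 27 mutant macrophages lie below any depth that the wild-type library could hold. The libraries shared 25 barcode sequences, none of them (0) a macrophage of both. Macrophages made up 1.15% of passing mutant barcodes (exact Clopper-Pearson interval 0.946 to 1.39) and 1.06% of passing wild-type barcodes (0.821 to 1.34). At or above 3352 UMIs, 81 mutant macrophages were 1.09% of 7412 barcodes (0.869 to 1.36), against the same 1.06% in the wild type. The shares differed by less than their counting error, and dissection and digestion can also set them.

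Mutant macrophages had a median of 11318.5 UMIs (1015 to 45381) and wild-type macrophages a median of 11076 UMIs (3383 to 21348). They were deeper than the other passing barcodes of their own libraries, whose medians were 8297 UMIs in the mutant and 7300.5 in the wild type. The median number of genes was 3285 in mutant and 3232 in wild-type macrophages. Mitochondrial transcripts took a median of 3.52% of UMIs in mutant and 2.45% in wild-type macrophages, a gap also seen in the other barcodes, at 4.27% in the mutant and 2.4% in the wild type.

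The C1q level that chose the cells had a median of 66.2 UMIs per 10000 in mutant macrophages (11 to 159) and 63 in wild-type macrophages (10.2 to 125). Most macrophages stood well above the threshold. In the mutant 60 of 108 and in the wild type 40 of 68 had between 50 and 100 per 10000, while 10 mutant and 5 wild-type barcodes lay between 10 and 20. Just inside the threshold lay mutant barcodes at 11, 12.4 and 12.4 and wild-type barcodes at 10.2, 10.9 and 14.8. Just outside lay mutant barcodes at 9.83, 9.55 and 9.53 and wild-type barcodes at 9.25, 8.18 and 7.48. All 3 C1q genes were detected in 95 of 108 mutant and 65 of 68 wild-type macrophages, and Csf1r, Pf4 and Fcer1g together in 82 mutant and 60 wild-type macrophages.

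**Figure D1:**
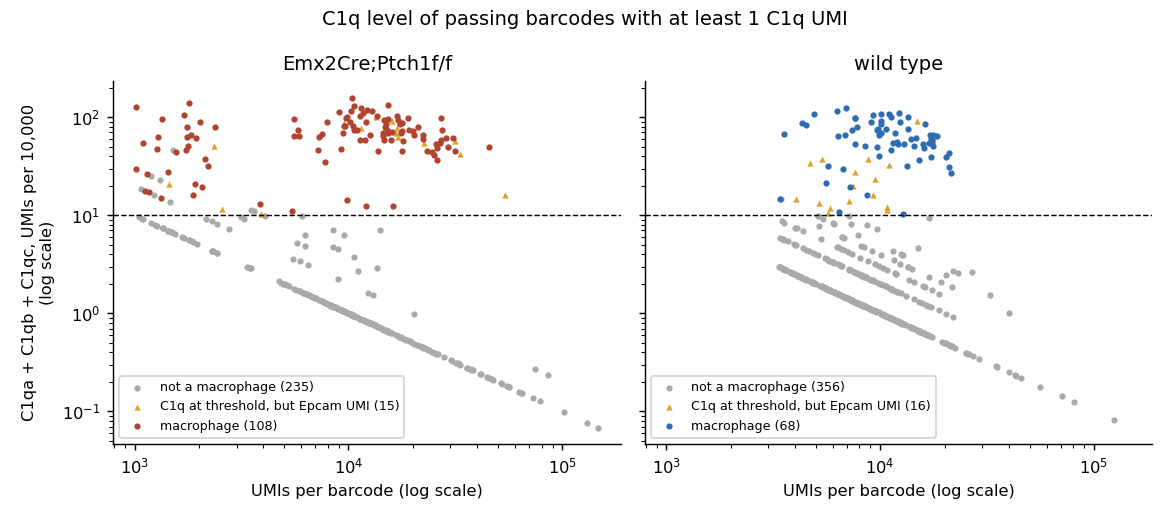
C1q UMIs per 10000 against UMIs per barcode, both on log scales, for passing barcodes with at least 1 C1q UMI in the mutant (left) and wild-type (right) library, with the threshold of 10 as a dashed line. The 108 mutant and 68 wild-type macrophages form a group above the line, the 15 mutant and 16 wild-type barcodes drawn as triangles were left out for an Epcam UMI, and the slanting rows below are barcodes with 1, 2 or 3 C1q UMIs.

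Beyond the genes of the rule, the selected barcodes carried a broad macrophage programme. Levels are given in CPM, the depth-scaled level of a gene in the UMIs summed over the macrophages of a library, 1316188 UMIs in the mutant and 788885 in the wild type. Of the 8461 genes with at least 20 UMIs over both libraries' macrophages, 540 (6.38%) were at least 4-fold higher in macrophages than in all other passing barcodes in both libraries. Among the 23 genes of myeloid signalling, 22 were. Tyrobp, the adaptor through which Fc and Trem receptors signal, stood at 1715 CPM in mutant and 1554 CPM in wild-type macrophages, against 23.3 CPM in other mutant and 10.5 CPM in other wild-type barcodes. Cx3cr1, the fractalkine receptor, stood at 905 CPM in mutant and 897 CPM in wild-type macrophages. The 25 genes with the largest excess over other barcodes were Cxcl2, Ccl3, Ccl4, Ccl2, Slfn2, Mrc1, Pf4, Ifi207, C3ar1, Lyve1, Aif1, Fcer1g, Ms4a7, Ms4a6b, Cx3cr1, Ctss, F13a1, Fcrls, C1qb, Ly86, Tyrobp, C1qc, C1qa, Csf1r and Laptm5. Because C1q chose the cells, these ratios describe the selection and support nothing further. The most abundant transcript among the listed genes was Apoe, which encodes a lipid carrier, at 12673 CPM in mutant and 13771 CPM in wild-type macrophages.

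PU.1, encoded by Spi1, is the transcription factor that macrophages depend on, and its binding core was searched in promoters because the selecting genes share a cell type. RefSeq promoters on GRCm38.p6 (mm10), 250 bases before to 50 after each start, were found for 19 of those 25 genes. The letters GAGGAAGT occurred on either strand in 4 of their 21 promoters (C1qc, Ctss, F13a1 and Pf4), against 1052 of all 32851 promoters (3.2%). Spi1 itself stood at 302 CPM in mutant and 308 CPM in wild-type macrophages. The promoters of C1qc, at chr4:136892865-136893164 on the minus strand, and of Pf4, at chr5:90772185-90772484 on the plus strand, are printed in the direction of transcription because both genes took part in the choice of cells. Capitals mark the match, which here reads as the reverse complement ACTTCCTC.
C1qc: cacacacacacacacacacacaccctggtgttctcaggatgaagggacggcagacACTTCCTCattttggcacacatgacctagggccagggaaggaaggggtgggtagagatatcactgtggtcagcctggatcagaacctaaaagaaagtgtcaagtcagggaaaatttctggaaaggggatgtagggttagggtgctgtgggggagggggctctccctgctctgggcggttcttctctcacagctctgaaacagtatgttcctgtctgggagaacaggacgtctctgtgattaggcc
Pf4: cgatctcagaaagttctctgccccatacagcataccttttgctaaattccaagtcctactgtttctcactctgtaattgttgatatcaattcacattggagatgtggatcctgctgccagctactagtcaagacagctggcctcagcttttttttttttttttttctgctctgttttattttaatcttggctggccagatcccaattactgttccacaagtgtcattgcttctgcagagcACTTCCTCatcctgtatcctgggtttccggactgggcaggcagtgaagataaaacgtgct
In C1qc the match began 195 bases before the start and in Pf4 10 bases before it. A match is a description of the letters and no evidence of binding.

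Markers of lymphocytes, mast cells and dendritic cells were low or absent in the macrophage sums. Those of osteoclasts and monocytes exceeded the other passing barcodes in both libraries. Of 9 lymphocyte markers, 6 were at 0 in mutant and 8 in wild-type macrophages, with Cd3e, Cd79a, Ms4a1 and Nkg7 at 0 in both. Of 8 mast cell markers, 6 were at 0 in mutant and 7 in wild-type macrophages, among them Cpa3 and Mcpt4. The dendritic cell markers summed to 8.36 CPM in mutant and 10.1 CPM in wild-type macrophages, against 8.95 and 7.63 CPM in the other barcodes. The neutrophil markers summed to 663 CPM in mutant and 1.27 CPM in wild-type macrophages, against 285 and 61.3 CPM in the other barcodes. Neutrophil marker UMIs lay in 8 mutant macrophages, and most came from 1 barcode, which held 513 of 513 UMIs of S100a9 and 318 of 319 of S100a8, the subunits of calprotectin. Osteoclast markers summed to 119 CPM in mutant and 106 CPM in wild-type macrophages, with Calcr, Ocstamp and Dcstamp at 0 in both. In the other barcodes they summed to 49.9 CPM in the mutant and 56.2 CPM in the wild type. Monocyte markers summed to 1548 CPM in mutant and 999 CPM in wild-type macrophages, against 416 and 367 CPM in the other barcodes.

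Microglia-associated genes were detected, although the cells lie outside the brain. Fcrls, an Fc receptor-like gene, stood at 806 CPM in mutant and 748 CPM in wild-type macrophages. P2ry12, a purine receptor, stood at 85.1 CPM in mutant and 77.3 CPM in wild-type macrophages, and Tmem119 at 19.8 CPM in mutant and 19 CPM in wild-type macrophages. Sall1, which encodes a microglial transcription factor, had 1 UMI in mutant and 0 in wild-type macrophages. Of the 10 microglial genes measured, none was at 2-fold between the genotypes, against 1.67% higher and 1.34% lower of all genes measured. The median log2 ratio was 0.076, or 0.046 without barcodes over 5 other-lineage UMIs per 10000.

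Transcripts of other cochlear lineages were present in many macrophage barcodes. UMIs of 55 genes of epithelial, mesenchymal, glial, neuronal, endothelial, pericyte, melanocyte and erythroid lists had a median of 7.41 per 10000 in mutant and 4.12 in wild-type macrophages, against 61.8 in other mutant and 96.5 in other wild-type barcodes. Over 5 per 10000 were found in 74 mutant macrophages (68.5%, 58.9 to 77.1) and in 31 wild-type macrophages (45.6%, 33.5 to 58.1). In a barcode under 2000 UMIs, 1 such UMI already exceeds this limit. There were 22 mutant and 0 wild-type macrophages under 2000 UMIs, so the limit of 5 also depends on depth. Over 20 per 10000 were found in 22 mutant macrophages (20.4%) and in 18 wild-type macrophages (26.5%). Mesenchymal markers summed to 409 CPM in mutant and 563 CPM in wild-type macrophages, and glial markers to 610 CPM in mutant and 638 CPM in wild-type macrophages. Erythroid markers summed to 222 CPM in mutant and 7824 CPM in wild-type macrophages. A single wild-type barcode with 3980 erythroid UMIs per 10000 held 2856 of the 3033 wild-type UMIs of Hbb-bs, an adult beta globin. Per barcode the order was the reverse. Erythroid UMIs lay in 95 of 108 mutant macrophages (median 2.43 per 10000) and in 44 of 68 wild-type macrophages (median 0.992). Among mutant macrophages with at least 3352 UMIs they lay in 75 of 81 (median 1.98). No doublet caller was run, so barcodes that hold more than 1 cell are not separated from macrophages that carry other cells' RNA. In the comparison between genotypes such barcodes are kept. List medians that turn sign or move by over 1.5 times without those over 5 per 10000 are given with both values.

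Both sexes contributed to the pools. Xist without any of the Y-linked genes was seen in 41 mutant and 29 wild-type macrophages, and Y-linked transcripts without Xist in 36 mutant and 26 wild-type macrophages. Both were present in 6 mutant and 7 wild-type macrophages, and neither in 25 mutant and 6 wild-type macrophages.

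Among themselves the macrophages fell into 7 sub-clusters at Leiden resolution 1, each with barcodes of both libraries, and into 6 at resolution 0.5. Because the genes that define a sub-cluster were used to make it, their values are given as description, and sizes are not compared between genotypes. The largest, with 46 barcodes (32 mutant, 14 wild-type), had no strong leading gene. Its first gene, Aldh1a3, came with 78 UMIs from 1 barcode, and Hells, a chromatin remodeller of replicating cells, stood at 110 CPM against 40.1 CPM in the other macrophages.

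A sub-cluster of 35 barcodes (20 mutant, 15 wild-type) had the highest level of the resident and perivascular genes, which summed to 14390 CPM. Mrc1, the mannose receptor, stood there at 2431 CPM against 1148 CPM in the other macrophages, and was detected in 34 of the 35. Lyve1, a hyaluronan receptor of perivascular macrophages, stood at 562 CPM against 258 CPM, and Hmox1, which degrades haem, at 2249 CPM against 740 CPM. The same barcodes had the highest chemokine sum, 17910 CPM, with Cxcl2 at 5128 CPM against 2248 CPM. Immediate early and heat shock genes were also highest there, at 19145 CPM.

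A sub-cluster of 18 barcodes (12 mutant, 6 wild-type) stood out by monocyte and antigen presentation genes. Ccr2, the monocyte receptor for Ccl2, was found in 17 of the 18 at 575 CPM, against 23.4 CPM in the other macrophages, and Plac8, a monocyte gene, in 15 at 441 CPM against 18.2 CPM. Cd74, the invariant chain of MHC class II, stood at 905 CPM against 33.7 CPM, but was seen in only 9 of the 18. Of its 162 UMIs there, 74 came from 1 barcode. H2-Aa was seen in only 5 of the 18, with 28 of 54 UMIs in 1 barcode. Mrc1 was low in this sub-cluster, at 402 CPM against 1429 CPM. Fn1, its first gene, had 179 of 191 UMIs in 1 barcode.

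Genes of dividing cells led a sub-cluster of 16 barcodes (11 mutant, 5 wild-type), with cell cycle list genes left out of the clustering. Mki67, a proliferation marker, stood at 927 CPM against 132 CPM in the other macrophages, and Hist1h1b, a replication-dependent linker histone, at 945 CPM against 46.1 CPM. Their Mrc1 level of 1496 CPM and Cx3cr1 level of 1320 CPM were as high as in the other macrophages, at 1324 and 854 CPM.

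A pair of sub-clusters was led by genes of other lineages. In one of 18 barcodes (8 mutant, 10 wild-type), the first genes were Otor, which encodes the inner ear protein otoraplin, and the fibrillar collagen genes Col1a2 and Col3a1, with Otor at 1173 CPM against 46.7 CPM and C1qa at 1091 CPM against 2058 CPM. In one of 20 barcodes (12 mutant, 8 wild-type), the first genes included Fabp7, a gene of developing glia, found in all 20 at 2919 CPM against 25.1 CPM. C1qa was also detected in all 20, at 1465 CPM against 2056 CPM. The last sub-cluster, of 23 barcodes (13 mutant, 10 wild-type), owed its first genes, among them S100a9, Hba-a1 and Cd5l, mainly to single barcodes.

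**Figure D2:**
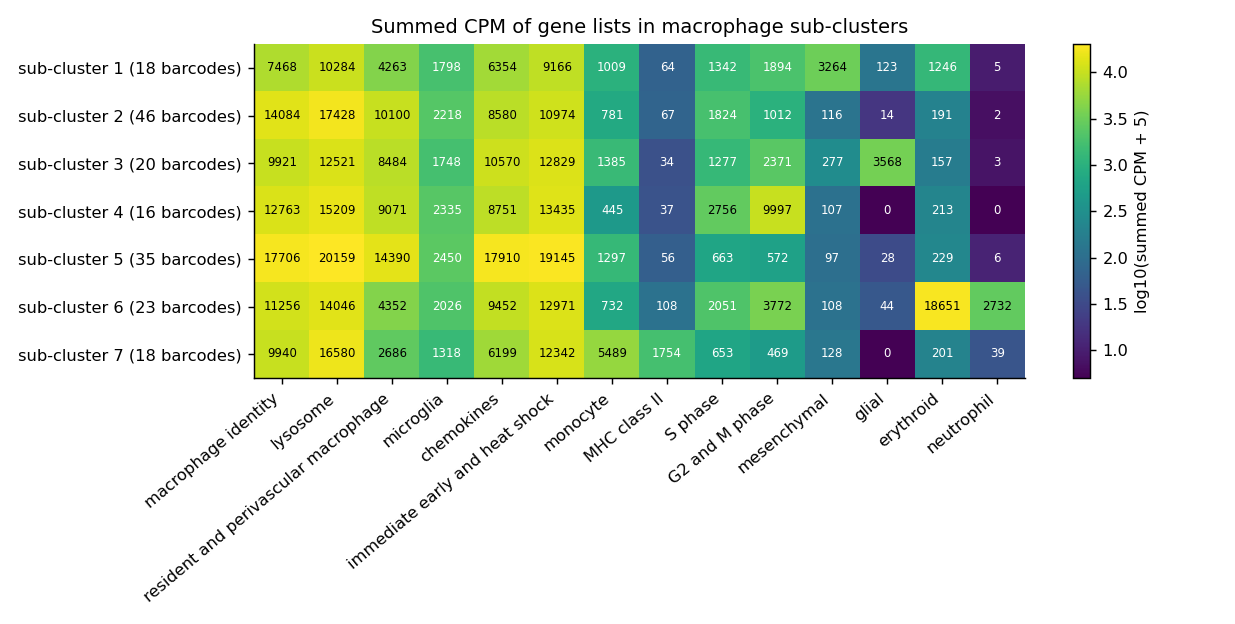
Summed CPM of 14 gene lists (columns) in the 7 macrophage sub-clusters (rows), coloured on a log10 scale after adding 5 CPM, with the CPM printed in each cell. Resident genes and chemokines peak in sub-cluster 5 (14390 and 17910 CPM), monocyte and MHC class II genes in sub-cluster 7 (5489 and 1754 CPM), G2 and M phase genes in sub-cluster 4 (9997 CPM).

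Between the genotypes, macrophage expression was compared as log2((CPM mutant + 5)/(CPM wild type + 5)), where a positive value is higher in the mutant. Adding 5 CPM understates the difference of low genes. Of 8461 genes measured, 141 (1.67%) were at least 2-fold higher in mutant macrophages and 113 (1.34%) at least 2-fold lower. The median of all was 0.015, with 51.2% above 0 and 48.8% below 0. Without the macrophages over 20 other-lineage UMIs per 10000, the counts were 207 higher and 64 lower. In 2 larger comparison sets from the same libraries the share past 2-fold is given for reference only, since it also depends on the number of UMIs summed. Collagen-high barcodes, with at least 10 UMIs per 10000 from Col1a2 and Col3a1, had 0.174% of 14929 genes higher and 0.409% lower. Endothelial barcodes, chosen by Cdh5, Cldn5, Kdr and Emcn, had 0.469% of 12580 genes higher and 0.636% lower.

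**Figure D3:**
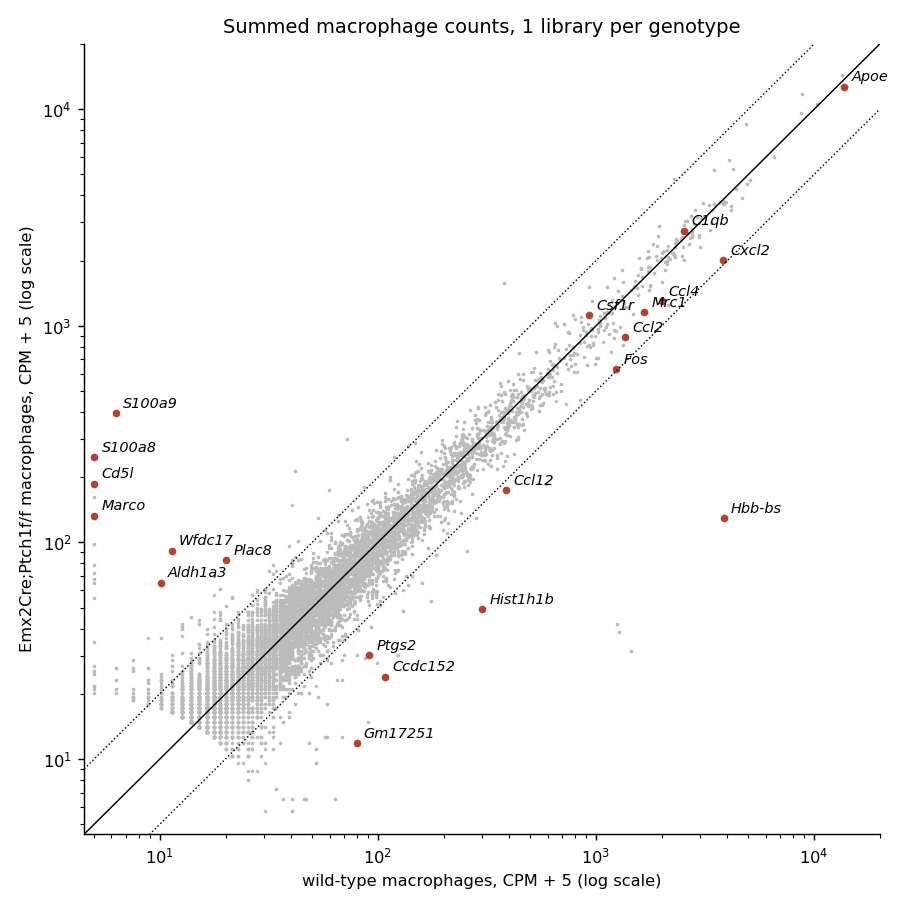
Each point is a gene, with CPM + 5 in wild-type macrophages on the horizontal and in mutant macrophages on the vertical log axis, 1 library per genotype. The solid line marks equal levels and the dotted lines 2-fold, and most of the 8461 genes lie between the dotted lines, with 141 above and 113 below.

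The genes that define the cells had like levels in both genotypes. C1qa stood at 2083 CPM in mutant (exact Poisson interval 2005 to 2162) and 1749 CPM in wild-type macrophages (1658 to 1844), a log2 ratio of 0.25. C1qb stood at 2748 CPM in mutant and 2523 CPM in wild-type macrophages, and C1qc at 2102 CPM in mutant and 1870 CPM in wild-type macrophages. Csf1r, the receptor for the macrophage growth factors CSF1 and IL-34, stood at 1115 CPM in mutant (1059 to 1174) and 925 CPM in wild-type macrophages (859 to 995). Pf4, a chemokine of platelets and macrophages, stood at 2298 CPM in mutant (2217 to 2382) and 2997 CPM in wild-type macrophages (2877 to 3120), a log2 ratio of -0.38. Fcer1g, the shared Fc receptor gamma chain, stood at 2081 CPM in mutant and 2130 CPM in wild-type macrophages. These differences were small, but since the genes chose the barcodes they are description only.

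Myeloid signalling genes were also close. Of 23 measured, 1 was at least 2-fold higher and none (0) lower, against 1.67% and 1.34% of all genes measured. Above 0 lay 19, against 51.2% of all genes, and the median was 0.19. The exception, Fcgr4, an activating Fc receptor, stood at 40.3 CPM in mutant and 8.87 CPM in wild-type macrophages (log2 ratio 1.71) and was detected in 19 mutant and 6 wild-type barcodes. Ptprc, which encodes the pan-leukocyte phosphatase CD45, was lowest, at 136 CPM in mutant and 204 CPM in wild-type macrophages (log2 ratio -0.57). Of 18 myeloid transcription factors none was at 2-fold, against 1.67% higher and 1.34% lower of all genes measured, and the median was 0.20. Maf, which sustains the resident state, stood at 1249 CPM in mutant and 1141 CPM in wild-type macrophages. Etv5 was highest at 44.1 CPM in mutant against 26.6 CPM in wild-type macrophages, and Klf4 lowest at 104 CPM against 157 CPM (log2 ratio -0.57, but 0.41 without barcodes over 5 other-lineage UMIs per 10000).

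The resident and perivascular list was split. Of 15 genes measured, 2 were at least 2-fold higher and none (0) lower, against 1.67% and 1.34% of all genes measured. Above 0 lay 9, against 51.2% of all genes. The median was 0.039, or -0.13 without barcodes over 5 other-lineage UMIs per 10000. The list holds Pf4, which chose the cells. Without Pf4 its median was 0.063, or -0.10 when barcodes over 5 other-lineage UMIs per 10000 were also left out. Mrc1 stood at 1151 CPM in mutant (1094 to 1211) and 1661 CPM in wild-type macrophages (1572 to 1753), a log2 ratio of -0.53. Per barcode its median was 7.86 UMIs per 10000 in mutant and 14.6 in wild-type macrophages, with ranges that overlapped (0 to 103 and 0 to 60.7). Among mutant macrophages with at least 3352 UMIs, the lowest depth in the wild-type library, the median was 9.73. After thinning each barcode to 2000 UMIs, which left out 22 mutant barcodes, Mrc1 was detected in 58 of 86 mutant macrophages (67.4%, 56.5 to 77.2) and 58 of 68 wild-type macrophages (85.3%, 74.6 to 92.7). Unthinned, the shares were 77.8% in the mutant and 92.6% in the wild type. Without barcodes over 5 other-lineage UMIs per 10000, the thinned shares were 93.9% of 33 mutant and 86.5% of 37 wild-type macrophages, so the order of the shares depends on those barcodes, while the log2 ratio of the sums was -0.52 without them. Background was small, at 0.0373% of collagen-high mutant and 0.217% of collagen-high wild-type barcodes, with median depths of 8496 and 6879.5 UMIs before thinning.

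Among the other resident genes, several abundant ones were closer between genotypes and 1 scarce gene was further apart. F13a1, a coagulation factor subunit made by resident macrophages, stood at 1101 CPM in mutant and 1037 CPM in wild-type macrophages. Dab2, an endocytic adaptor, stood at 1140 CPM in both. Stab1, a scavenger receptor, stood at 659 CPM in mutant and 795 CPM in wild-type macrophages, and Lyve1 at 289 CPM in mutant and 330 CPM in wild-type macrophages. Timd4, a receptor for phosphatidylserine on dying cells, stood at 23.6 CPM in mutant and 2.54 CPM in wild-type macrophages (log2 ratio 1.92). It was seen in 14 mutant barcodes and 2 wild-type barcodes, and the log2 ratio was 1.58 with its highest barcode left out.

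Over all macrophages, chemokines had the lowest median among immune lists with at least 5 genes measured. Of 19 listed, 14 were measured. None (0) was at least 2-fold higher and 1 was at least 2-fold lower, against 1.67% and 1.34% of all genes measured. Below 0 lay 11 of the 14, against 48.8% of all genes measured, and the median was -0.44. Without barcodes over 5 other-lineage UMIs per 10000 the same genes had a median of -0.27, and the cytokine and MHC class II medians were then lower, at -0.42 and -1.28. The list holds Pf4, a gene of the selection rule. Without Pf4, 10 of 13 chemokines lay below 0 and the median was -0.50, or -0.19 without barcodes over 5 other-lineage UMIs per 10000. Chemokines other than Pf4 summed to 6033 CPM in mutant and 9885 CPM in wild-type macrophages, with a median per barcode of 34.2 UMIs per 10000 in mutant and 93 in wild-type macrophages. With Pf4 they took 8331 CPM in mutant and 12881 CPM in wild-type macrophages. Per barcode the median with Pf4 was 63 UMIs per 10000 in mutant (quartiles 30.7 and 95.6) and 108 in wild-type macrophages (64 and 177). Among barcodes at or above the wild-type UMI floor the medians with Pf4 were 72.8 in the mutant and 108 in the wild type. Those without Pf4 were not computed at this floor. The ranges overlapped widely in both cases.

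Cxcl2, which attracts neutrophils, stood at 1997 CPM in mutant (1921 to 2075) and 3829 CPM in wild-type macrophages (3694 to 3968), a log2 ratio of -0.94. Its median per barcode was 9.96 UMIs per 10000 in mutant and 31.7 in wild-type macrophages. Among mutant macrophages at or above the wild-type UMI floor the median was 14.4. Ccl2, the main monocyte attractant, stood at 882 CPM in mutant (832 to 934) and 1356 CPM in wild-type macrophages (1276 to 1440), a log2 ratio of -0.62. Ccl4, an attractant of monocytes and lymphocytes, stood at 1292 CPM in mutant (1231 to 1355) and 1994 CPM in wild-type macrophages (1897 to 2095). Ccl3, a related chemokine, stood at 748 CPM in mutant (702 to 796) and 1162 CPM in wild-type macrophages (1088 to 1240). For each of these genes the mutant value was lower in the summed counts under all 17 settings tried, with log2 ratios from -1.23 to -0.87 for Cxcl2, -0.83 to -0.47 for Ccl2, -0.96 to -0.36 for Ccl3 and -0.98 to -0.19 for Ccl4.

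The weaker chemokines rested more on single barcodes. Ccl12, another monocyte attractant, was the member past 2-fold, at 169 CPM in mutant and 383 CPM in wild-type macrophages (log2 ratio -1.15). Of its 302 wild-type UMIs 129 came from 1 barcode, and the log2 ratio was -0.59 with the highest barcode of each library left out and -0.035 without barcodes over 5 other-lineage UMIs per 10000. Cxcl10, an interferon-induced attractant of lymphocytes, stood at 150 CPM in mutant and 214 CPM in wild-type macrophages, and its log2 ratio of -0.50 became 0.0074 in the same way. Ccl24, an attractant of eosinophils, went against the list, at 122 CPM in mutant and 73.5 CPM in wild-type macrophages (log2 ratio 0.70), with a UMI in 55 mutant and 24 wild-type barcodes.

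In the comparison sets the leading chemokines were nearly absent. Of the listed chemokines 10 were measured in collagen-high barcodes, with a median log2 ratio of 0.042, and 6 in endothelial barcodes, with a median of -0.10, where 43.4% and 45.1% of all genes measured lay below 0. Cxcl2 stood at 2.3 CPM in collagen-high and 7.43 CPM in endothelial wild-type barcodes. After thinning to 2000 UMIs, Cxcl2 was detected in 65.1% of mutant (54.1 to 75.1) and 76.5% of wild-type macrophages (64.6 to 85.9), against 0.112% of collagen-high mutant and 0.563% of collagen-high wild-type barcodes. Unthinned, the macrophage shares were 64.8% in the mutant and 85.3% in the wild type. The level thus differed more than the share of barcodes with a UMI, whose intervals overlapped after thinning. Immediate early and heat shock genes, which tissue digestion is known to induce along with chemokines, summed to 12466 CPM in mutant and 13885 CPM in wild-type macrophages, and their part in the chemokine difference was not tested.

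**Figure D4:**
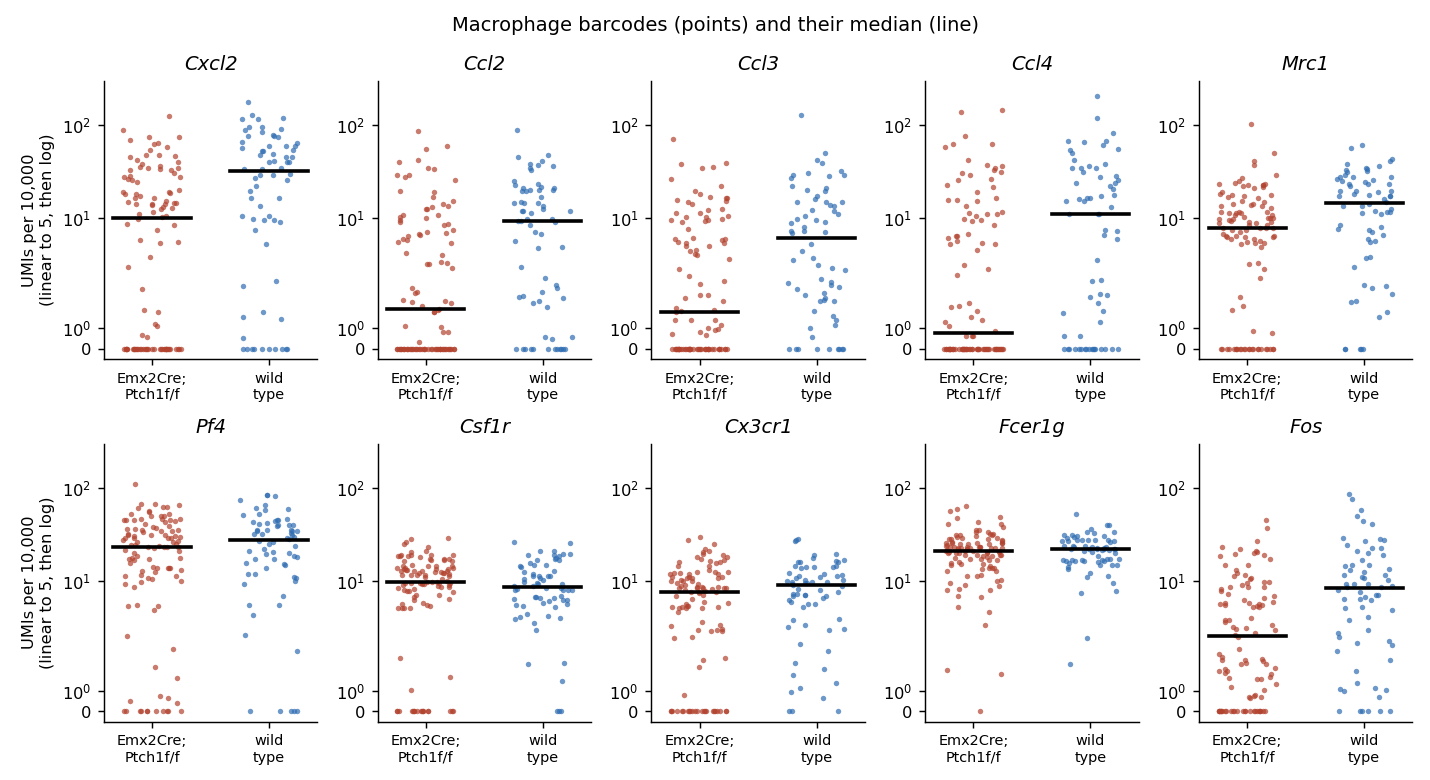
UMIs per 10000 of 10 genes in each mutant (red, left) and wild-type (blue, right) macrophage barcode, on an axis that is linear to 5 and logarithmic above, with the median as a line. The medians of Cxcl2, Ccl2, Ccl3, Ccl4, Mrc1 and Fos are lower in the mutant, those of Pf4, Csf1r, Cx3cr1 and Fcer1g lie close together, and the points of both genotypes overlap in every panel. The mutant points include 27 barcodes below the lowest UMI count of the wild-type library.

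NF-kB induces many chemokines, so its consensus of 10 bases was searched in their promoters. RefSeq promoters were found for 13 of the 19 listed chemokines, and the consensus occurred on either strand in 2 of 13, those of Cxcl1 and Cxcl2, against 29 of all 32851 promoters (0.0883%). Cxcl1, which shares a receptor with Cxcl2, stood at 132 CPM in mutant and 235 CPM in wild-type macrophages (log2 ratio -0.80). The promoters of Cxcl1, at chr5:90890995-90891294, and Cxcl2, at chr5:90903649-90903948, both on the plus strand, are printed because these neighbouring genes had, with Ccl12, the lowest ratios of the list. Capitals mark the match.
Cxcl1: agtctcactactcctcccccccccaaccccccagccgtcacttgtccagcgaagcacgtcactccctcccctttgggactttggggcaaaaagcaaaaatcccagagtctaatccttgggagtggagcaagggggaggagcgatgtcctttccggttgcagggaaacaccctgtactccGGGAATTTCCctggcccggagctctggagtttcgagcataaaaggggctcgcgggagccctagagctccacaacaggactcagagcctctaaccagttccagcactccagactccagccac
Cxcl2: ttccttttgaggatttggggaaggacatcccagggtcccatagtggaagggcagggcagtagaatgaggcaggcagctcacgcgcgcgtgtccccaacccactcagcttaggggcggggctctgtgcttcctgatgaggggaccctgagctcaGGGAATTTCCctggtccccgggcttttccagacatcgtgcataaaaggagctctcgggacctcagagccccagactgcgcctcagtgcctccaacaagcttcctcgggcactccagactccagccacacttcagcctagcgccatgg
The match began 71 bases before the start of Cxcl1 and 97 bases before that of Cxcl2. Promoters without these letters may hold other forms of the site, which were not searched.

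Cytokines and NF-kB response genes leaned the same way. Of 14 measured, 2 were at least 2-fold lower and none (0) higher, against 1.34% and 1.67% of all genes measured. Below 0 lay 11, against 48.8% of all genes. The median was -0.18, or -0.42 without barcodes over 5 other-lineage UMIs per 10000. Ptgs2, which encodes the prostaglandin enzyme COX-2, stood at 25.1 CPM in mutant (17.3 to 35.2) and 86.2 CPM in wild-type macrophages (66.9 to 109), a log2 ratio of -1.60. Socs3, a brake on cytokine signalling, stood at 53.2 CPM in mutant and 115 CPM in wild-type macrophages (log2 ratio -1.05, and -0.70 without barcodes over 5 other-lineage UMIs per 10000). Tnf and the NF-kB inhibitor Nfkbia were closer. Tnf stood at 258 CPM in mutant and 304 CPM in wild-type macrophages, and Nfkbia at 963 CPM in mutant and 1017 CPM in wild-type macrophages. Tgfb1 was the member with the highest ratio, at 256 CPM in mutant (229 to 285) and 152 CPM in wild-type macrophages (126 to 182), a log2 ratio of 0.73. Il1b stood at 316 CPM in mutant and 285 CPM in wild-type macrophages.

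Immediate early genes, which respond within minutes to stimulation or dissociation, were partly lower and heat shock genes partly higher. Of 19 measured, 2 were at least 2-fold higher and none (0) lower, against 1.67% and 1.34% of all genes measured. Below 0 lay 13, against 48.8% of all genes, and the median was -0.17. Fos stood at 626 CPM in mutant (584 to 670) and 1230 CPM in wild-type macrophages (1153 to 1309), a log2 ratio of -0.97. Jun stood at 944 CPM in mutant and 1231 CPM in wild-type macrophages. The members past 2-fold were the inducible Hsp70 genes. Hspa1a stood at 242 CPM in mutant and 113 CPM in wild-type macrophages, and Hspa1b at 52.4 CPM in mutant and 12.7 CPM in wild-type macrophages (log2 ratio 1.70). These genes are nearly identical, so reads can be split between them. Fos was also lower in the other cells of the mutant library, at 502 CPM against 772 CPM in the wild type.

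Lysosomal genes were slightly higher. Of 23 measured none was at 2-fold, against 1.67% higher and 1.34% lower of all genes measured. Above 0 lay 20, against 51.2% of all genes, and the median was 0.15. Ctsb, the most abundant cathepsin, stood at 3049 CPM in mutant (2955 to 3145) and 2562 CPM in wild-type macrophages (2451 to 2676). Psap, the saposin precursor needed for sphingolipid breakdown, was highest, at 1023 CPM in mutant (969 to 1079) and 645 CPM in wild-type macrophages (590 to 704), a log2 ratio of 0.66. Cd63, a tetraspanin of late endosomes, was lowest of the list, at 421 CPM in mutant and 485 CPM in wild-type macrophages. The lysosomal median was 0.069 without barcodes over 5 other-lineage UMIs per 10000. The letters CACGTG, the core of the CLEAR element that TFEB binds, occurred in 5 of 21 promoters of 18 lysosomal genes with a RefSeq entry (Ctsa, Ctsd, Ctsl, Lamp1 and Lgmn), against 7.15% of all promoters.

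Iron and haem genes were likewise shifted by a small amount. Of 16 measured none was at 2-fold, against 1.67% higher and 1.34% lower of all genes measured. Above 0 lay 12, against 51.2% of all genes. The median was 0.26, or 0.039 without barcodes over 5 other-lineage UMIs per 10000. Ftl1, the light chain of the iron store ferritin, stood at 11700 CPM in mutant (11516 to 11886) and 8800 CPM in wild-type macrophages (8594 to 9009), and was detected in every macrophage of both libraries. It was higher in other mutant barcodes too, at 2209 CPM against 1897 CPM in other wild-type barcodes. The heavy chain Fth1 stood at 5996 CPM in mutant and 6532 CPM in wild-type macrophages. Hmox1 stood at 1040 CPM in mutant (986 to 1097) and 848 CPM in wild-type macrophages (785 to 915).

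Lipid-associated genes, measured for 12, had none (0) at 2-fold higher and 1 lower, against 1.67% and 1.34% of all genes measured. The median was 0.13, or -0.069 without barcodes over 5 other-lineage UMIs per 10000. Lgals3, encoding galectin-3, stood just under 2-fold at 109 CPM in mutant and 52 CPM in wild-type macrophages. Spp1, encoding osteopontin, was the lower one at 24.3 CPM in mutant and 82.4 CPM in wild-type macrophages, with 36 of 65 wild-type UMIs in 1 barcode and a log2 ratio of -0.80 without the highest barcodes. Trem2, a lipid receptor, stood at 451 CPM in mutant and 401 CPM in wild-type macrophages.

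Among efferocytosis and scavenger receptors, which bind dying cells and debris, 2 of 18 were at least 2-fold higher and none (0) was lower. Of all genes measured 1.67% were higher and 1.34% lower by that much. The list median was 0.13. Marco, a scavenger receptor of subsets of tissue macrophages, had 168 UMIs in mutant macrophages (128 CPM) and 0 in wild-type macrophages. The mutant UMIs of Marco lay in 6 barcodes, with 91 in 1 of them, and the wild-type level was under 3.8 CPM by the limit of 3 counts. Thinned to 2000 UMIs, Marco was seen in 4 of 86 mutant macrophages (4.65%, 1.28 to 11.5) and 0 of 68 wild-type macrophages, where the limit of 3 counts allows up to 4.41% of barcodes with a UMI at this depth. It was seen in 0 of the 33 thinned mutant macrophages that had at most 5 other-lineage UMIs per 10000, and unthinned in 1 of 34. Timd4, given above, was the other. Axl, a receptor tyrosine kinase of efferocytosis, stood at 65.3 CPM in mutant and 33 CPM in wild-type macrophages, and its relative Mertk at 69.9 CPM in mutant and 73.5 CPM in wild-type macrophages.

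Among complement genes, 3 of 11 were at least 2-fold higher and none (0) was lower, against 1.67% and 1.34% of all genes measured. The median was 0.17, or 0.030 without barcodes over 5 other-lineage UMIs per 10000. The list holds the 3 C1q genes that chose the cells. Without them the median of 8 genes was 0.53, or 0.25 when barcodes over 5 other-lineage UMIs per 10000 were also left out. Cfp, encoding properdin, stood at 96.5 CPM in mutant and 38 CPM in wild-type macrophages, in 41 mutant and 24 wild-type barcodes. Cfb, encoding factor B of the same alternative pathway, stood at 35.7 CPM in mutant and 12.7 CPM in wild-type macrophages, in 21 mutant and 7 wild-type barcodes. With each gene's highest barcode left out, their log2 ratios were 1.11 and 1.52, compared with 1.24 and 1.20 over all barcodes. Without barcodes over 5 other-lineage UMIs per 10000 they were 0.48 for Cfp and 0.72 for Cfb, both under 2-fold. The third, C4b, had 38 of its 39 mutant UMIs in 1 barcode. The receptor gene C3ar1 stood at 468 CPM in mutant and 549 CPM in wild-type macrophages.

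Over all macrophages, monocyte genes had the highest median among immune lists with at least 5 genes measured, 0.49 over 7 measured of 12 listed. Of the 7, 2 were at least 2-fold higher and none (0) lower, against 1.67% and 1.34% of all genes measured. Without barcodes over 5 other-lineage UMIs per 10000 the median was 0.56, below the interferon response median of 0.70. Complement genes other than C1q were also above it over all macrophages, with a median of 0.53. Plac8 stood at 77.5 CPM in mutant (63.2 to 94.1) and 15.2 CPM in wild-type macrophages (7.86 to 26.6), a log2 ratio of 2.03, and was detected in 15 mutant and 6 wild-type barcodes. Lyz2, encoding lysozyme, stood at 1112 CPM in mutant and 777 CPM in wild-type macrophages. Fn1, the other member past 2-fold, had 179 of 190 mutant UMIs in 1 barcode, and its log2 ratio of 1.88 became -1.24 without the highest barcodes. Ccr2 did not share the direction, at 69.1 CPM in mutant and 72.3 CPM in wild-type macrophages, and Ly6c2, a marker of classical monocytes, had 1 UMI in mutant macrophages against 5 in wild-type macrophages. Thinned to 2000 UMIs, Ccr2 was seen in 8 of 86 mutant (9.3%, 4.1 to 17.5) and 4 of 68 wild-type macrophages (5.88%, 1.63 to 14.4), against 0.0373% and 0% of collagen-high barcodes.

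MHC class II genes were rare in both genotypes. Summed over 8 genes they took 198 CPM in mutant and 219 CPM in wild-type macrophages. Of 5 measured 1 was at least 2-fold higher, against 1.67% of all genes measured. The median was -0.25, or -1.28 without barcodes over 5 other-lineage UMIs per 10000. H2-Aa, H2-Ab1 and H2-Eb1 were found in 1 mutant barcode each, and in 4, 2 and 2 wild-type barcodes. H2-Ab1, the member past 2-fold, had all 23 of its mutant UMIs in that single barcode, and its log2 ratio of 1.16 became -0.33 without the highest barcodes.

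Innate sensing genes differed little, while interferon response genes depended on which barcodes were kept. Of 13 Toll-like receptor genes measured none was at 2-fold, against 1.67% higher and 1.34% lower of all genes measured. The median was 0.14. Tlr2 stood at 261 CPM in mutant and 180 CPM in wild-type macrophages, and Unc93b1, which carries nucleic acid sensing receptors to endosomes, at 404 CPM in mutant and 260 CPM in wild-type macrophages (log2 ratio 0.63). Of 12 interferon response genes, 1 was at least 2-fold higher and 2 were lower, against 1.67% and 1.34% of all genes measured. The list median was -0.036. That median was 0.70 without barcodes over 5 other-lineage UMIs per 10000 and 0.39 without those over 20, so its sign was not stable. Irf7, a regulator of interferon genes, had 66 UMIs in mutant and 13 in wild-type macrophages, in 24 mutant and 8 wild-type barcodes (log2 ratio 1.36). Ifit1, lowest of the list, had 34 of 37 wild-type UMIs in 1 barcode, and its log2 ratio of -2.23 became -0.00065 without the highest barcodes.

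Among growth factors and guidance molecules, 13 measured, none was at 2-fold, against 1.67% higher and 1.34% lower of all genes measured. The median was -0.073. Grn, encoding progranulin, stood at 1091 CPM in mutant and 845 CPM in wild-type macrophages. Igf1 stood at 235 CPM in mutant and 213 CPM in wild-type macrophages, and Gas6, the bridging ligand of Axl and Mertk, at 366 CPM in mutant and 356 CPM in wild-type macrophages. Hbegf was lowest, at 50.1 CPM in mutant and 88.7 CPM in wild-type macrophages.

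**Figure D5:**
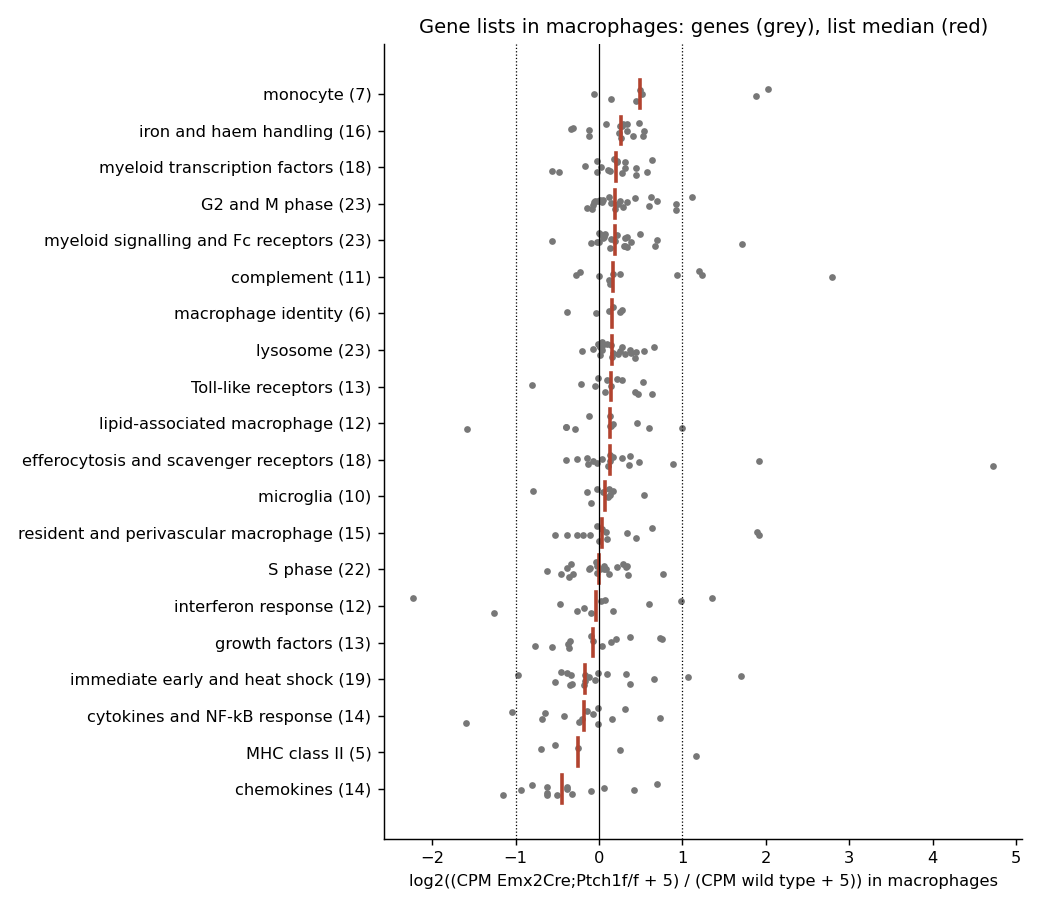
Log2 ratio of mutant over wild type for the measured genes (grey points) of 20 lists in macrophages, with each list's median as a red bar, dotted lines at 2-fold and the number of genes in brackets. Chemokines have the lowest median (-0.44) and monocyte genes the highest (0.49), while most points of every list lie within 2-fold.

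Cell cycle genes showed cycling macrophages in both genotypes. Of 22 S phase genes none was at 2-fold, against 1.67% higher and 1.34% lower of all genes measured. The S phase median was -0.0018, or -0.39 without barcodes over 5 other-lineage UMIs per 10000. Of 23 G2 and M phase genes 1 was at least 2-fold higher, against 1.67% of all genes measured. Their median was 0.19, or -0.35 without barcodes over 5 other-lineage UMIs per 10000. Mki67 stood at 211 CPM in mutant and 218 CPM in wild-type macrophages, and Top2a at 270 CPM in mutant and 281 CPM in wild-type macrophages. Thinned to 2000 UMIs, either was seen in 19 of 86 mutant (22.1%, 13.9 to 32.3) and 17 of 68 wild-type macrophages (25%, 15.3 to 37). Unthinned the shares were 40.7% in the mutant and 51.5% in the wild type. Collagen-high barcodes, themselves a dividing population, had 18.7% in the mutant and 22.8% in the wild type. Ccnb1, the cyclin of mitotic entry, was the gene past 2-fold, at 52.4 CPM in mutant and 21.5 CPM in wild-type macrophages, with 14 mutant and 10 wild-type barcodes and a log2 ratio of 0.87 without the highest barcodes.

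The highest ratios of single genes mostly rested on few barcodes. Among 2435 genes eligible for ranking, the first 12 were S100a9, S100a8, Cd5l, Cstdc5, Marco, Stfa1, Cstdc4, Stfa2, Stfa2l1, Wfdc17, Aldh1a3 and Plac8. Apart from Cd5l, Marco, Wfdc17 and Plac8, all owed nearly every UMI to 1 mutant barcode. Cd5l, a secreted protein of tissue macrophages, had 239 UMIs in 7 mutant barcodes, 205 of them in 1, and 0 in wild-type macrophages, and its log2 ratio of 5.22 was 0.82 without barcodes over 5 other-lineage UMIs per 10000. Wfdc17 was more widely spread, at 86.6 CPM in mutant (71.4 to 104) and 6.34 CPM in wild-type macrophages (2.06 to 14.8). It was found in 20 mutant and 5 wild-type barcodes, and its log2 ratio of 3.01 was 2.55 without the highest barcodes.

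The lowest 12 were Gm17251, Hist1h1b, Ccdc152, Hist1h2ae, Ptgs2, Gm20186, Slfn9, Gm11808, Kmt2d, Nutf2-ps1, Ccl12 and Errfi1. Gm17251 had 52 of 59 wild-type UMIs in 1 barcode. Hist1h1b stood at 44.1 CPM in mutant (33.5 to 57) and 295 CPM in wild-type macrophages (259 to 336), a log2 ratio of -2.61. It was found in only 12 mutant and 16 wild-type barcodes. Over both libraries, 10 barcodes of the dividing sub-cluster held 204 UMIs of Hist1h1b, 69 of them in 1 barcode. Hist1h1b was also lower in collagen-high barcodes of the mutant (log2 ratio -0.92) and in endothelial barcodes (-1.14). Gm11808 was lower by a like amount in all 3 sets, with log2 ratios of -1.30 in macrophages, -1.24 in collagen-high and -1.22 in endothelial barcodes. Ccdc152 stood at 19 CPM in mutant and 103 CPM in wild-type macrophages, in 17 mutant and 34 wild-type barcodes, with a log2 ratio of -2.11 without the highest barcodes. Errfi1, a feedback inhibitor of EGF receptor signalling, stood at 55.5 CPM in mutant and 125 CPM in wild-type macrophages, in 33 mutant and 41 wild-type barcodes.

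The genes of the engineered pathway were scarce in these cells. Ptch1, at chr13:63508328-63573598, had 20 UMIs in mutant macrophages (15.2 CPM, 9.28 to 23.5) and 9 in wild-type macrophages (11.4 CPM, 5.22 to 21.7). The exons that are floxed are not given in the sources used here and the reads come from the 3′ end, so this level checks neither the deletion nor the labels. Gli1, a Hedgehog target, had 1 UMI in mutant and 1 in wild-type macrophages, and Hhip, another target, had 3 in mutant and 2 in wild-type macrophages. Emx2, whose promoter drives Cre, had 0 UMIs in the macrophages of both libraries, so its level was under 2.28 CPM in the mutant and 3.8 CPM in the wild type by the limit of 3 counts. In other barcodes Ptch1 stood at 63.2 CPM in the mutant and 27.6 CPM in the wild type, and Gli1 at 8.23 CPM in the mutant and 3.71 CPM in the wild type.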

How the data were processed

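Single-cell RNA-seq counts from 1 Emx2Cre;Ptch1f/f and 1 wild-type library were used as deposited. Per the file headers, the authors made these UMI counts per gene and barcode with Cell Ranger 5.0.1 for the mutant and 6.0.0 for the wild type, while the submitters' processing notes name 6.0.0 and mm10 for both. The sources used here do not give the rule by which barcodes were kept as cells, and the lowest deposited barcode differed between libraries (500 and 3352 UMIs in the mutant and the wild type). Per the labels the kit was version 3.2 for the mutant and 3.1 for the wild type. Genotype, library preparation and software version cannot be told apart.

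From the counts, macrophages were selected by the rule given in the report, their UMIs were summed per library and scaled to CPM with exact Poisson intervals, and shares were given exact Clopper-Pearson intervals. Ratios were taken after adding 5 CPM, for genes with at least 20 UMIs over both libraries. Barcodes were thinned to 2000 UMIs for shares of barcodes with a UMI. Leiden sub-clusters used 1000 variable genes without cell cycle, sex chromosome, haemoglobin, mitochondrial and ribosomal protein genes, 15 principal components and 10 neighbours. No doublet caller was run. Limits on other-lineage UMIs were used as alternatives in its place. The members and the 35 gene lists were chosen with earlier results of these data known. Named genes were the selecting and Hedgehog genes, the 3 most abundant members and the highest and lowest ratio of each list, the 12 highest and 12 lowest ratios among eligible genes with at least 50 UMIs, and the 25 genes of largest excess in macrophages. Other list members were named for their known roles after their values were seen. Of 32285 gene IDs, 32235 were found in GENCODE vM21. Computations were tested on simulated data and used Python 3.11.15, numpy 2.4.6, pandas 2.3.3, scipy 1.17.1, scanpy 1.11.5, igraph 0.11.9 and matplotlib 3.10.9.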

Additional observations from a re-analysis of the deposited data

Results flagged for a closer look

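Some C1q signal lay outside the macrophages. Barcodes that met the C1q and receptor conditions but carried an Epcam UMI numbered 15 in the mutant and 16 in the wild type, and were left out. They had a median of 1 Epcam UMI in the mutant and 3 in the wild type, and their C1q level had a median of 57.3 UMIs per 10000 in the mutant and 18.2 in the wild type. Among the passing barcodes that were not macrophages, 2.7% in the mutant (2.38 to 3.05) and 5.84% in the wild type (5.27 to 6.44) had at least 1 C1q UMI. Between 1 and 5 per 10000 were found in 79 of these mutant and 237 of these wild-type barcodes. The source of these UMIs was not tested.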

How the results depend on the processing

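No paired analysis was possible because each genotype had 1 library, and for the same reason no replicate could be left out. Of 2282 values of 150 named genes under the alternatives, 1950 stayed within the counting interval, 320 moved and 12 changed sign after a 2-fold difference. Only 34 of the 47 named genes at 2-fold or more kept their sign in every setting. Genes under the UMI minimum in a setting have no value there. Shares of barcodes with a UMI were taken at other depths or without barcodes over 5 other-lineage UMIs per 10000. Of 132 such values of 44 shares, 73 stayed within the counting interval and 59 moved. Of 342 values of 22 list medians, 332 stayed within an interval for the median over the list's genes and 10 moved. That interval reflects the spread between genes and not counting error. A median under 2-fold over all macrophages was never counted as changing sign. The alternatives for medians included leaving out the genes of the selection rule, chosen after seeing the data. The macrophage share was 1.44% in the mutant at a limit of 5% mitochondrial UMIs. Without barcodes over 5 other-lineage UMIs per 10000, 34 mutant (0.363%) and 37 wild-type macrophages (0.575%) were left. Without those over 20, chosen after seeing the data, the shares were 0.918% in the mutant and 0.776% in the wild type, and 64 genes were at least 2-fold lower. That count was 176 with Epcam allowed and 237 as a mean of barcodes' CPM. Genes higher and lower numbered 270 and 196 with 1 CPM added, 75 and 67 with 10 CPM added, and 63 and 45 at 50 UMIs or more. With Epcam allowed the log2 ratios of Hba-a1, Hba-a2, Hbb-bs and Hbb-bt were 1.73, 1.69, 1.87 and 1.65. Without barcodes over 20 they were 0.52, 0.26, 0.44 and 0.77, and without those over 5 Hbb-bs was at 0.64 and Hbb-bt at 1.58. With each gene's highest barcode left out, chosen after seeing the data, Fn1 was at -1.24 and H2-Ab1 at -0.33. The cause was not tested. Small sums limit genes under about 20 UMIs.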

Other observations

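Several abundant transcripts, chosen after their values were seen, differed between the libraries in macrophages and in both comparison sets. Gm10076 stood at 1570 CPM in mutant and 373 CPM in wild-type macrophages, with log2 ratios of 2.06 in macrophages, 1.99 in collagen-high and 2.01 in endothelial barcodes. For mt-Co1, a mitochondrial subunit of cytochrome oxidase, the log2 ratios were 1.06, 1.20 and 0.93 in the same order. Rps27rt stood at 85.9 CPM in mutant and 251 CPM in wild-type macrophages, with log2 ratios of -1.49, -1.51 and -1.30. Stmn1, which encodes a microtubule regulator, stood at 182 CPM in mutant and 582 CPM in wild-type macrophages, with log2 ratios of -1.65, -1.13 and -1.03.

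Other genes, chosen in the same way, differed less outside the macrophages. Arsb, a lysosomal sulfatase, stood at 169 CPM in mutant and 54.5 CPM in wild-type macrophages, was detected in 68 mutant and 27 wild-type barcodes, and had log2 ratios of 1.55 in macrophages, 0.16 in collagen-high and 0.42 in endothelial barcodes. Errfi1 had log2 ratios of -1.11, -0.019 and -0.54 in the same order. These differences between cell sets were not tested.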
